A study of Mus musculus with 6 samples.

Results

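The 33 genes described here are classical imprinted genes of the mouse, taken by symbol from the 24129 gene names of the table. They were compared between T1 and T2 cells, a pair of tumor cell populations derived from a primary tumor of 4T1GFP, the BALB/c mammary carcinoma line 4T1 carrying a GFP tag, grown in BALB/c mice. Both populations came from a culture sorted as cancer associated fibroblasts that GFP positive tumor cells outgrew, were separated by their GFP level, and were kept in DMEM/F-12 with 10% serum. T1 cells, labelled 4T1A, are GFP low, adherent, of epithelial morphology, fast to proliferate and aggressive in mice, whereas T2 cells, labelled 4T1NA, are GFP high, round, loosely attached, slower to proliferate and less aggressive. Each is 1 sorted population, sequenced in 3 replicates that the series calls independent, and the parental 4T1GFP cells were not analysed here.

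Imprinted genes are transcribed mainly or only from the chromosome of 1 parent. The parental mark is DNA methylation set in the germline at an imprinting control region, which the zinc finger protein Zfp57 and its partner Trim28 protect in the early embryo and Dnmt1 with Uhrf1 copies at each cell division. Most imprinted genes lie in clusters, in which a single control region governs genes of opposite parental origin, often through a long noncoding RNA such as H19, Airn or Kcnq1ot1. Many of them act on growth of the fetus and placenta, paternally expressed genes as a rule promoting growth and maternally expressed genes restraining it, and imprinting is often disturbed in tumors. The values below are totals over both alleles, so they tell nothing of imprinting itself.

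The promoters of the members that the comparison turns on are shown first. Each window runs from 250 bases before to 50 bases after a RefSeq transcript start on GRCm38.p6, is written in the direction of transcription, and has its CpG pairs, the bases that carry the methylation mark, in capitals. The Mest, Ppp1r9a, Asb4 and Phlda2 windows belong to genes that differed between T1 and T2, and the Peg3 window, which holds the paired starts of Peg3 and Usp29, belongs to genes without a single read.
Mest, chr6:30737803-30738102, plus strand: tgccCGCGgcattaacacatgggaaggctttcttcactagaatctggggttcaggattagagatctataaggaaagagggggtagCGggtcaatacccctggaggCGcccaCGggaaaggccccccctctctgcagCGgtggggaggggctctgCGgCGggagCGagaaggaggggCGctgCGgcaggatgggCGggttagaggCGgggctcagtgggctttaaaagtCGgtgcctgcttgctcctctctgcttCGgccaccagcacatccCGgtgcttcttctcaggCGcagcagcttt
Ppp1r9a, chr6:4903061-4903360, plus strand: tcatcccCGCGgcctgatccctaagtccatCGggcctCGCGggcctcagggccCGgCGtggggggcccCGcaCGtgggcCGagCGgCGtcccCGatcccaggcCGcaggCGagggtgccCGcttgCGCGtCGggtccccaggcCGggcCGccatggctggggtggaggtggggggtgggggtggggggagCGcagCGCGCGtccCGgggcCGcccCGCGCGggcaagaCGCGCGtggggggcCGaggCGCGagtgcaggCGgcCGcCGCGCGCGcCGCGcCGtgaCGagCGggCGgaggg
Asb4, chr6:5383136-5383435, plus strand: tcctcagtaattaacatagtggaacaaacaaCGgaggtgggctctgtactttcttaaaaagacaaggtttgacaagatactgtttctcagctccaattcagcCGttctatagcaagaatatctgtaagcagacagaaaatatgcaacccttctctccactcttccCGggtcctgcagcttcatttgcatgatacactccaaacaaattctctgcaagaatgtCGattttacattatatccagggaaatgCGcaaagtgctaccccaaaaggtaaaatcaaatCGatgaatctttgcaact
Phlda2, chr7:143502475-143502774, minus strand: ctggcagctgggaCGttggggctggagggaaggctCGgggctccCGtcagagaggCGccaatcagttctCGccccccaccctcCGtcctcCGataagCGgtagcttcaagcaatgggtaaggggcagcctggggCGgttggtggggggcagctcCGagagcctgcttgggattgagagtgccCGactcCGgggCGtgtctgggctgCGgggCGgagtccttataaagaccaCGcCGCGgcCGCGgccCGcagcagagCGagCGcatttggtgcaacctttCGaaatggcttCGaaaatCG
Peg3, chr7:6730370-6730669, minus strand: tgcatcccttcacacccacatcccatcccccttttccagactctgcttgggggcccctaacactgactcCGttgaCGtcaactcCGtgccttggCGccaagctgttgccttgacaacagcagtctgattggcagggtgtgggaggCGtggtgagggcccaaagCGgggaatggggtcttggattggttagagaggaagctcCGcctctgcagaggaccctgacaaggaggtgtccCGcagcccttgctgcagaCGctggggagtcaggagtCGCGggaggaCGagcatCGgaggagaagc

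These windows held 17 CpG pairs for Mest, 48 for Ppp1r9a, 6 for Asb4, 26 for Phlda2 and 13 for Peg3, beside a median of 7 over the 32851 promoter windows of the table and of 12 over the 41 windows found for 26 of the imprinted genes. Other start sites of these genes gave other values, with 8 CpG pairs in a further Mest window that lacks the Zfp57 word described next, 10 in a further Ppp1r9a window and 8 in a further Asb4 window. The core word of the Zfp57 motif, TGCCGC, or GCGGCA as read on the other strand, occurred 2 times in the Mest window and in none of the other 4. It was present in 9 of the 41 imprinted gene windows (22.0%) and in 11.6% of all windows, where overlapping windows of 1 gene count separately. A match describes letters and not a binding site, and no methylation was measured.

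Expression was sparse across the set. Of the 33 genes, 16 (48.5%) had 0 reads in each of the 6 libraries, against 34.9% of all gene names in the table, and 7 more had a few reads but a mean under the minimum of 10 normalized counts used for the comparison. The other 10 were compared, and they were expressed at widely different levels. The normalized count is a gene's read count divided by the size factor of its library, so it is comparable between libraries but not between genes of different length. On a scale that allows for length, RPKM computed here from exon length and the reads on genes, the means in T1 cells ran from 93.8 for Gnas, 21.9 for Igf2r and 21.3 for Phlda2, through 6.48 for Impact, to 0.0222 for Kcnq1ot1. Gnas stood far above the rest in both populations, with 109.7 in T2 cells, while Igf2r and Phlda2 lay within each other's spread in T1 cells.

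**Figure D1:**
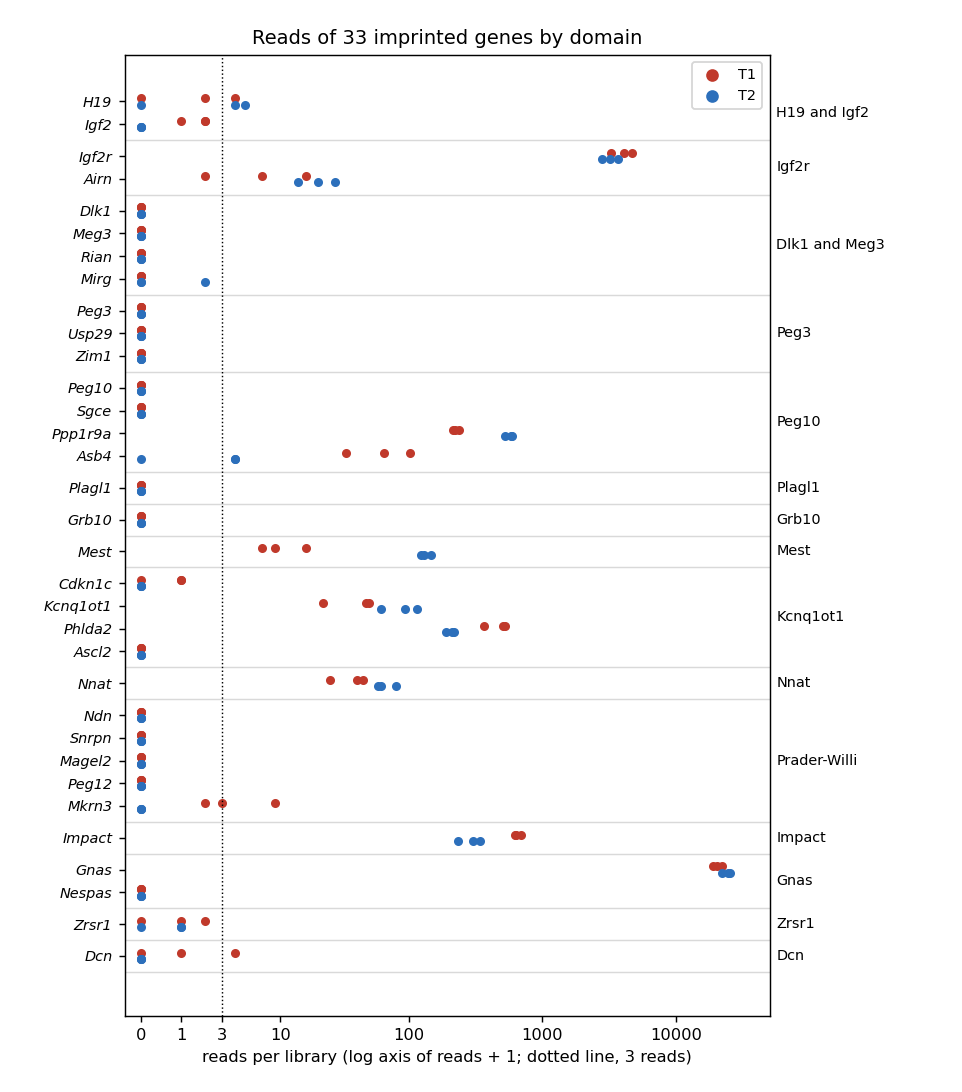
Reads of the 33 imprinted genes in every library (horizontal log axis of reads + 1), grouped by imprinted domain, with T1 libraries in red and T2 libraries in blue. A dotted line marks 3 reads, and the 16 genes at 0 in all 6 libraries lie at the left edge.

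Of the 10 genes compared, 5 passed an adjusted p under 0.01 (limma with Benjamini-Hochberg adjustment over all 11514 genes compared), where 49.5% of all genes compared passed. The 3 that were higher in T1 cells were Asb4, Phlda2 and Impact, and the 2 that were lower were Mest and Ppp1r9a, beside 25.1% and 24.4% of all genes in these directions. With the added requirement of an absolute log2 fold change above 2, only Asb4 (higher) and Mest (lower) remained, 2 of 10 beside 8.37% of all genes, of which 4.17% were higher and 4.2% lower. The libraries of T1 and T2 did not overlap for 9 of the 10, against 68.1% of all genes. The median log2 fold change, T1 minus T2, was -0.53 over the 10 imprinted genes and -0.01 over all genes compared. The shares of genes called were thus close to those of the whole table at the adjusted p, and nothing particular to the set is read from them.

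**Figure D2:**
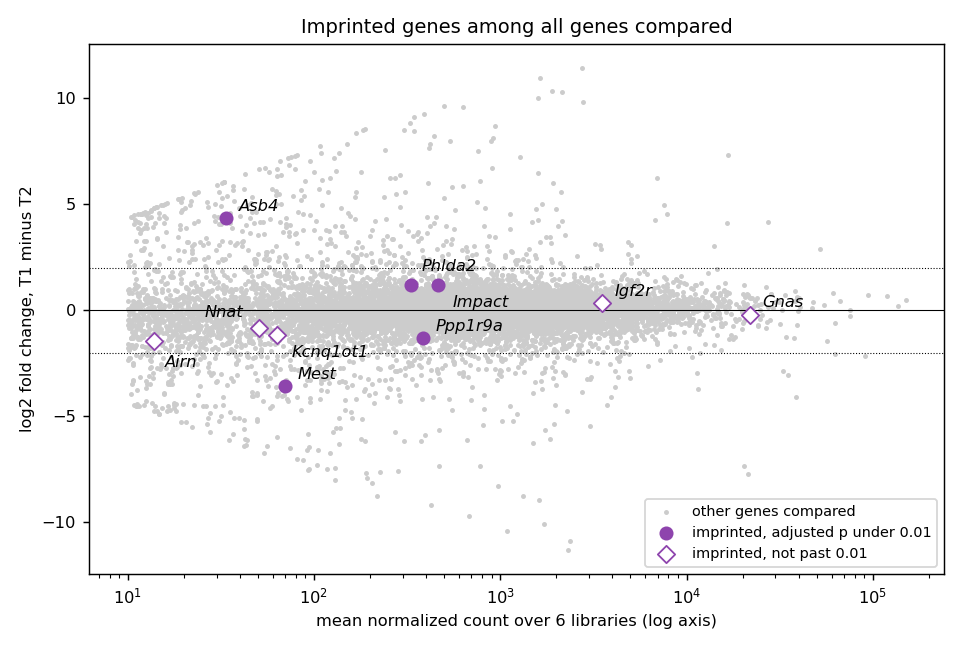
Log2 fold change of T1 minus T2 (vertical axis, log2(normalized count + 1) scale) against the mean normalized count over 6 libraries (log axis) for the 11514 genes compared, in grey, with the 10 imprinted genes in purple. Filled circles passed an adjusted p of 0.01, open diamonds did not, and dotted lines mark log2 fold changes of 2 and -2, beyond which only Asb4 and Mest lie among the imprinted genes.

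Mest had the largest absolute fold change of the members that were lower in T1 cells. Mest (mesoderm specific transcript, chr6:30723547-30748465, plus strand) is a paternally expressed gene that encodes an enzyme of the alpha/beta hydrolase fold and is active in mesoderm and growing fat tissue. Its normalized counts were 16.9, 8.37 and 6.83 in the T1 libraries and 142.0, 125.9 and 120.6 in the T2 libraries. Every T2 library lay far above every T1 library, the T1 values resting on 16, 9 and 7 reads. The means were 10.7 ± 5.44 and 129.5 ± 11.1 (SD, n = 3 each), a T2 level 12.1 times that of T1, and the log2 fold change was -3.57 (SE 0.32, adjusted p = 5.82e-06 by limma). Exons of Mest share 23.1% of their bases with Copg2 on the opposite strand, a gene for a coat protein subunit of vesicles that had 615 ± 96.1 and 757 ± 99.3 normalized counts and did not pass (log2 fold change -0.30, adjusted p = 0.085 by limma). The strand setting of the counting is not given in the sources used here, so reads of overlapping genes on opposite strands cannot be told apart. On the other side of Mest, Cep41, which encodes a centrosome and cilium protein, fell in T1 cells from 238 ± 16.3 to 148 ± 9.40 (log2 fold change -0.68, adjusted p = 0.00165 by limma). All 3 neighbours thus had lower means in T1 cells, but the differences were of unequal size and that of Copg2 did not pass.

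Ppp1r9a and Asb4, neighbours in the Peg10 domain of chromosome 6, moved in opposite directions. Both are described as maternally expressed in particular tissues, among them the placenta and extraembryonic tissue. Ppp1r9a (chr6:4902917-5165661, plus strand) encodes neurabin, which ties protein phosphatase 1 to actin filaments. Its normalized counts were 234.9, 199.0 and 230.3 in T1 and 512.1, 593.8 and 551.2 in T2 libraries. All T2 libraries stood above the highest T1 library, by a wide margin. The means were 221 ± 19.5 and 552 ± 40.9 (SD, n = 3), with a log2 fold change of -1.32 (SE 0.12, adjusted p = 7.80e-06 by limma).

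Asb4 (chr6:5383386-5433022, plus strand) encodes an ankyrin repeat protein with a SOCS box, through which it serves a ubiquitin ligase. It had 67.7, 93.9 and 32.2 normalized counts in T1 and 3.92, 4.10 and 0 in T2 libraries, from 64, 101 and 33 reads against 4, 4 and 0. The T1 libraries differed among themselves by close to their own mean, yet the lowest was still well above the highest T2 library. The means were 64.6 ± 31.0 and 2.67 ± 2.31 (SD, n = 3), a ratio of 24.2, and the log2 fold change was 4.36 (SE 0.64, adjusted p = 0.000193 by limma). Its size depended on how the few T2 reads were handled, and with a pseudocount of 5 in place of 1 it was 3.12. Leaving out T2 replicate 3, the library without a read, gave 3.58.

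The domain around these genes was read in part. Peg10, a gene derived from a retrotransposon that the placenta requires, and Sgce, which encodes epsilon-sarcoglycan, start 99 bases apart on opposite strands at the imprinted control region of the domain, and both were at 0 in all libraries. Casd1 lies beside Sgce and had 427 ± 41.8 normalized counts in T1 and 326 ± 28.8 in T2 cells (log2 fold change 0.39, adjusted p = 0.0211 by limma). Between Ppp1r9a and Asb4, the paraoxonase gene Pon3 fell in T1 cells, from 286 ± 62.2 to 128 ± 12.2 (log2 fold change -1.13, adjusted p = 0.000287 by limma), whereas Pon2 rose from 961 ± 49.7 to 1486 ± 176 (log2 fold change 0.62, adjusted p = 0.000359 by limma). Their paralog Pon1 was at 0, and Pdk4, next to Asb4, had 3 reads in all. Of the 9 genes from Casd1 to Pdk4, 5 were compared, in the order Casd1 (positive fold change), Ppp1r9a and Pon3 (negative), Pon2 and Asb4 (positive). Casd1 and Pon3 were picked with their values in view.

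**Figure D3:**
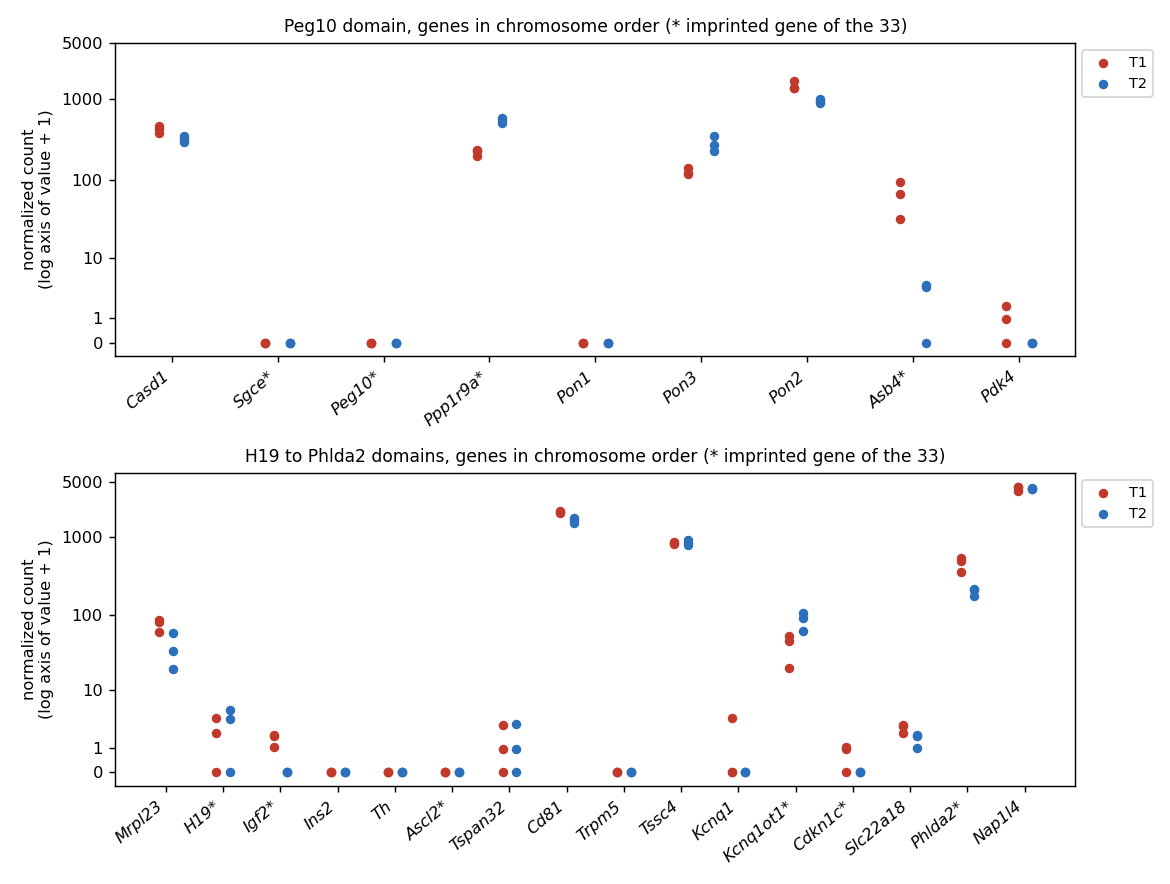
Normalized counts of every library (vertical log axis of value + 1) for consecutive genes of the Peg10 domain on chromosome 6 and of the H19 to Phlda2 region on chromosome 7, in chromosome order without scale, T1 in red and T2 in blue. Asterisks mark imprinted genes of the set, and Peg10 and Sgce at 0 stand between Casd1 and Ppp1r9a, which have reads in every library.

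Phlda2 and Impact were both higher in T1 cells by similar ratios. Phlda2 (chr7:143501545-143503150, minus strand) encodes a small pleckstrin homology domain protein, is maternally expressed and restrains growth of the placenta. The libraries had normalized counts of 540.7, 484.5 and 357.2 in T1 and 211.5, 215.0 and 177.2 in T2 libraries. T1 replicate 3 was the lowest T1 library and still exceeded every T2 library. The means were 461 ± 94.0 and 201 ± 20.9 (SD, n = 3), a ratio of 2.29, and the log2 fold change was 1.18 (SE 0.17, adjusted p = 0.000154 by limma). The flanking gene Nap1l4, a histone chaperone gene, had 4166 ± 239 and 4129 ± 83.9 normalized counts (log2 fold change 0.01, adjusted p = 0.902 by limma), and Slc22a18 on the other side had 13 reads over the 6 libraries.

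Impact (chr18:12955852-12992950, plus strand) is paternally expressed in the mouse and encodes an inhibitor of the amino acid sensing kinase Gcn2. It had 669.8, 576.6 and 675.4 normalized counts in T1 and 336.8, 239.6 and 280.2 in T2 libraries. No T2 library came near the lowest T1 library. The means were 641 ± 55.5 and 286 ± 48.8 (SD, n = 3), a ratio of 2.24, with a log2 fold change of 1.17 (SE 0.14, adjusted p = 4.87e-05 by limma). Its neighbour Osbpl1a, which encodes an oxysterol binding protein of late endosomes, went the other way, with 283 ± 35.7 in T1 and 452 ± 45.8 in T2 cells (log2 fold change -0.68, adjusted p = 0.00142 by limma). Hrh4, a histamine receptor gene on the far side, was at 0.

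Igf2r and Airn form the classical pair of a maternally expressed receptor and the paternally expressed antisense RNA that silences it. Igf2r (chr17:12682406-12769664, minus strand) carries Igf2 and lysosomal enzymes to the lysosome. Normalized counts of Igf2r were 3428, 3767 and 4605 in T1 and 3128, 2845 and 3421 in T2 libraries. The populations were separated by a narrow gap, the lowest T1 library standing just above the highest T2 library. With means of 3933 ± 606 and 3132 ± 288 (SD, n = 3), the log2 fold change was 0.32 (SE 0.11) and did not pass (adjusted p = 0.0297 by limma).

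Airn (chr17:12741311-12860136, plus strand) starts within Igf2r and is read away on the other strand, without a shared exon base in the annotation. It had 2.12, 6.51 and 15.6 normalized counts in T1 and 19.6, 14.3 and 25.1 in T2 libraries, each from 27 reads or fewer. It was the only compared member whose populations overlapped, T1 replicate 3 lying above T2 replicate 2. The means were 8.08 ± 6.89 and 19.7 ± 5.36 (SD, n = 3), with a log2 fold change of -1.47 (SE 0.56, adjusted p = 0.0427 by limma). Single libraries decided this value, which was -2.06 (adjusted p = 0.00416 by limma) without T1 replicate 3 and -0.85 (adjusted p = 0.133 by limma) without T1 replicate 1. Igf2r, on the opposite strand, had 2779 to 4718 reads per library, and whether any of its reads entered the Airn count was not tested.

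Kcnq1ot1 (chr7:143203458-143296549, minus strand) is the paternally expressed noncoding RNA that silences the genes around Kcnq1, Phlda2 among them. Its normalized counts were 52.9, 20.5 and 45.9 in T1 and 91.1, 62.5 and 105.8 in T2 libraries. The populations did not overlap, but T1 replicate 2 stood well under its 2 companions. The means were 39.7 ± 17.1 and 86.4 ± 22.0 (SD, n = 3), and the log2 fold change of -1.17 (SE 0.35) did not pass (adjusted p = 0.0142 by limma). It passed without T1 replicate 1 (log2 fold change -1.43, adjusted p = 0.00857 by limma) and in DESeq2 on the recovered reads (-1.13, adjusted p = 0.00382). It did not pass without T1 replicate 2 (-0.77, adjusted p = 0.0378 by limma) or T1 replicate 3 (adjusted p = 0.0135 by limma). Nor did it pass without T2 replicate 1 (adjusted p = 0.0527 by limma), T2 replicate 2 (adjusted p = 0.0131 by limma) or T2 replicate 3 (adjusted p = 0.0657 by limma). Kcnq1, within which it is transcribed in antisense, had 4 reads in all.

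Within the same cluster, the fitted difference was positive for Phlda2 and negative for Kcnq1ot1. Cdkn1c, a maternally expressed inhibitor of cyclin dependent kinases, had 1, 1 and 0 reads in T1 and none in T2 libraries, and Ascl2, a transcription factor gene of the placenta, was at 0. Between Ascl2 and Kcnq1ot1, Cd81, a tetraspanin gene, rose in T1 cells from 1620 ± 102 to 2069 ± 75.4 (log2 fold change 0.35, adjusted p = 0.00307 by limma), and Mrpl23, a mitochondrial ribosomal protein gene next to H19, had 76.3 ± 13.96 and 37.4 ± 19.7 (log2 fold change 1.13, adjusted p = 0.0186 by limma). Cd81 and Mrpl23 were picked with their values in view.

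Gnas and Nnat, in separate domains of chromosome 2, had lower means in T1 cells and did not pass. Gnas (chr2:174284320-174346744, plus strand) encodes the stimulatory G protein alpha subunit and, from other promoters, imprinted products of both parental origins, which the gene-level count adds together. Its normalized counts were 20107, 18991 and 21590 in T1 and 24908, 22559 and 22710 in T2 libraries. The lowest T2 library was only slightly above the highest T1 library, and with means of 20229 ± 1304 and 23393 ± 1315 (SD, n = 3) the log2 fold change was -0.21 (SE 0.079, adjusted p = 0.0386 by limma). Its exons overlap those of other annotated genes, Nespas among them, over 22.0% of their bases, and Nespas, the paternally expressed antisense RNA of the locus, was at 0.

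Nnat (chr2:157560078-157562522, plus strand) encodes neuronatin, a small membrane protein of the endoplasmic reticulum known from the developing brain. Normalized counts of Nnat were 47.6, 23.3 and 39.0 in T1 and 56.8, 80.9 and 56.6 in T2 libraries. The populations did not overlap, and with means of 36.6 ± 12.4 and 64.8 ± 13.97 (SD, n = 3) the log2 fold change was -0.84 (SE 0.30, adjusted p = 0.0297 by limma). Nnat lies within Blcap on the opposite strand, and Blcap had 866 ± 96.7 and 1042 ± 83.0 normalized counts (log2 fold change -0.27, adjusted p = 0.0494 by limma). Blcap was picked with its values in view, and whether any of its reads entered the Nnat count was not tested.

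**Figure D4:**
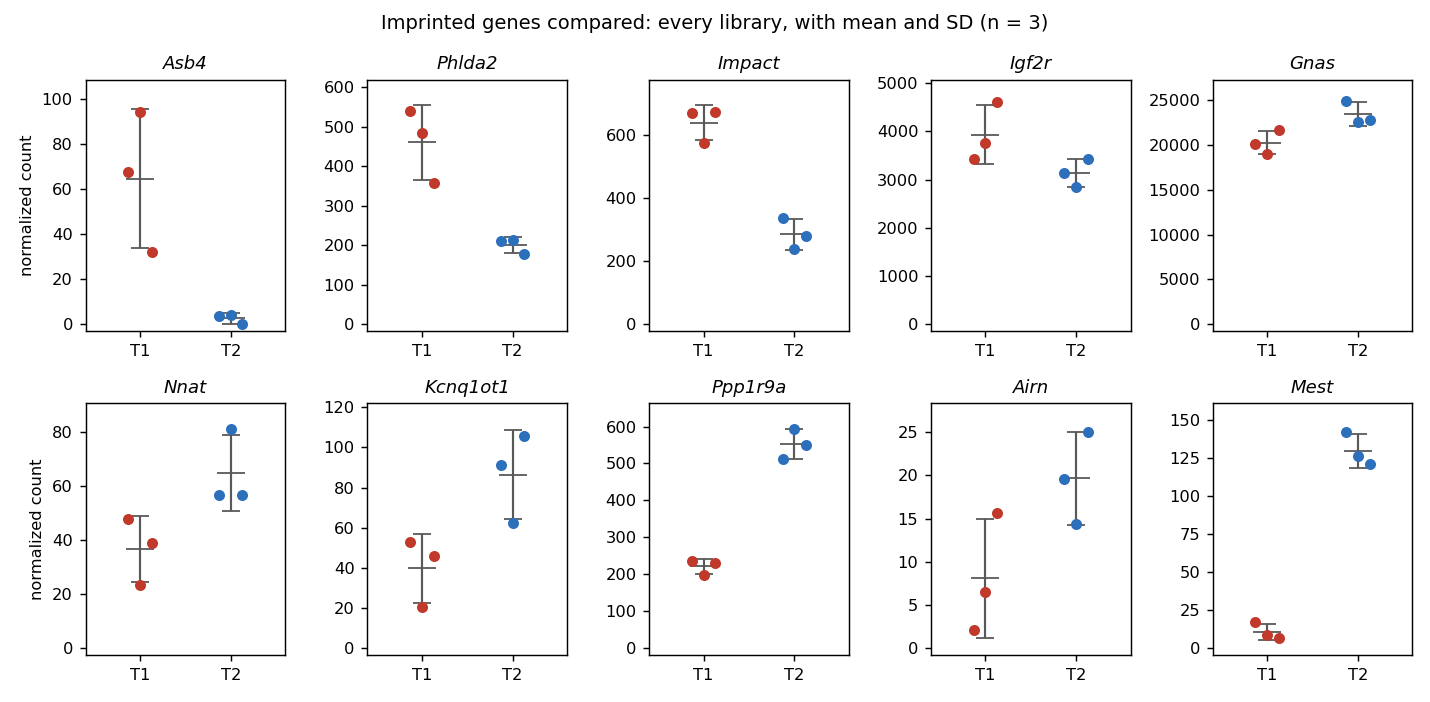
Normalized counts (vertical axes from 0, 1 scale per gene) of the 10 imprinted genes compared, with 1 point per library, T1 in red and T2 in blue, and bars for the mean and SD of 3 libraries. Libraries of T1 and T2 overlap in Airn alone, and the gap between them is wide in Mest and Ppp1r9a and narrow in Igf2r.

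By parental origin, the maternally expressed genes numbered 13, of which 5 were at 0, 4 were compared and 3 were called, 2 higher (Asb4, Phlda2) and 1 lower (Ppp1r9a) in T1 cells. The paternally expressed genes numbered 19, of which 11 were at 0, 5 were compared and 2 were called, Impact higher and Mest lower. Of all genes compared, 49.5% were called, 25.1% higher and 24.4% lower. Calls therefore occurred in both directions among genes of either origin. Called or not, 3 of the 4 maternally expressed genes compared had a positive fitted difference (median log2 fold change 0.75). Among the 5 paternally expressed genes compared, 1 was positive and 4 were negative (median -1.17). Whether direction goes with parental origin was not tested. Gnas was counted apart because its products differ in origin.

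H19 and Igf2, the maternally expressed noncoding RNA and the paternally expressed fetal growth factor that share enhancers on chromosome 7, had few reads. H19 had 2, 0 and 4 reads in T1 and 0, 5 and 4 in T2 libraries, with no separation of the populations. Igf2 had 1, 2 and 2 reads in T1 and 0 in each T2 library, under the 3 reads taken here as the limit of detection, and no fold is given. The annotation assigns 64.5% of the exon bases of Igf2 to other genes as well, and the effect of this on its count was not tested.

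Of the other members with few reads, Mkrn3, a paternally expressed gene of the Prader-Willi region that encodes a ubiquitin ligase holding back puberty, had 2, 9 and 3 reads in T1 and 0 in T2 libraries. T1 replicate 2 alone held 9 of the 14 reads, so no fold is given here. Dcn, which encodes the matrix proteoglycan decorin, had 1, 0 and 4 reads in T1 and 0 in T2 libraries. Zrsr1, a splicing factor gene inside Commd1, had 1, 0 and 2 reads in T1 and 1, 0 and 1 in T2 libraries, and Mirg, a microRNA host of the Dlk1 domain, had 2 reads in T2 replicate 2 only. With 3 reads equal to 2.78 to 3.17 normalized counts, these genes lay at the edge of what this depth can show, and they were not compared.

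Of the 16 genes at 0, 12 lay in domains in which no member was compared. All 3 members of the Peg3 domain (Peg3, which encodes a zinc finger protein, with Usp29 and Zim1) were at 0, as were their neighbours Olfr1350 and Aurkc. In the Dlk1 domain, Dlk1, an inhibitor of adipocyte differentiation, and the noncoding RNAs Meg3 and Rian were at 0, as were Rtl1 and Dio3 of the same domain. Begain, the gene before Dlk1, did have reads, with 2, 0 and 3 in T1 and 10, 17 and 7 in T2 libraries, at least 3.79-fold higher in T2 cells. Ndn, Snrpn, Magel2 and Peg12 of the Prader-Willi region were at 0, and of the 8 genes examined there only Ube3a, a ubiquitin ligase gene, was compared, with 1906 ± 338 normalized counts in T1 and 1332 ± 107 in T2 cells (log2 fold change 0.50, adjusted p = 0.00627 by limma). Plagl1, a zinc finger gene that heads a network of imprinted growth genes, and Grb10, an adaptor that restrains insulin signalling, were likewise at 0. Members were compared in 7 of the 15 domains and in none of the other 8. The neighbours named in these domains were picked after their values were known.

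A 0 in this table is not always absence of a transcript. Gapdh, an enzyme of glycolysis that every cell uses, was listed with 1 read over the 6 libraries, and 22.6% of its 75-base words also occur in annotated transcripts of 121 other genes. Among the 16 imprinted genes at 0, 9 shared neither such a word nor an exon base with another gene (Ascl2, Dlk1, Grb10, Magel2, Ndn, Peg10, Peg12, Peg3 and Sgce), and 7 did share some. Snrpn, which encodes a spliceosome protein, shared 22.6% of its words, among others with Snurf of the same transcript, which was at 0 too. Genes that were counted shared words too, Mest 20.2% and Gnas 17.1%, and both had reads in every library. Gapdh was near 0 although most of its words were not shared, so sharing of words cannot sort these zeros. Whether reads of any of the 16 genes at 0, or of Gapdh, were set aside as ambiguous or lost otherwise was not tested.

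Markers of cell types were set beside these values. Of 8 epithelial markers, 7 were compared and 5 were higher in T1 cells, all 5 past both filters. Of all genes compared, 49.5% were called, 25.1% higher in T1 cells, and 8.37% passed both filters. The 8 epithelial markers summed to 72400 to 80736 normalized counts in T1 and 37495 to 43417 in T2 libraries. The keratins Krt8 (means of 22067 and 19195) and Krt18 (23275 and 21658) made up most of the T2 sum and did not pass, whereas Epcam and Cdh1 were lower in T2 cells and Krt14, Krt19 and Cldn4 were near 0 there. The 10 fibroblast markers, Dcn among them, summed to 353 to 403 in T1 and 997 to 1297 in T2 libraries. Of these, 3 were compared and all 3 passed both filters (Col1a1 and Postn higher, Pdgfra lower in T1 cells), while Col3a1, Lum, Pdgfrb and Thy1 were at 0. Among the 3 compared, only Pdgfra was higher in T2 cells, and Pdgfra made up most of the T2 sum. The 10 leukocyte markers summed to 386 to 463 in T1 and 172 to 209 in T2 libraries, with Cd14 as the one past both filters (340 ± 30.2 and 83.1 ± 16.9, log2 fold change 2.04). Ptprc and Cd79a had 0 reads in T1 libraries and 3 to 6 in each T2 library, and Tyrobp, Adgre1 and Cd3e were at 0. The 6 endothelial markers summed to at most 6.35 in any library. The part of these differences in the imprinted gene values was not tested. In bulk RNA, fewer cells that express a gene and less of its RNA per cell cannot be told apart.

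Of the machinery that keeps and removes imprints, 17 of 20 genes were compared and 8 were called, 1 higher and 7 lower in T1 cells (49.5% of all genes compared were called, 25.1% higher and 24.4% lower), and the median of their log2 fold changes was -0.23, with none past both filters. Zfp57, the zinc finger protein that guards imprinting control regions, had 54.0, 56.7 and 83.0 normalized counts in T1 and 109, 155 and 139 in T2 libraries. It was lower in all T1 libraries, with a log2 fold change of -1.06 (SE 0.22, adjusted p = 0.00208 by limma). Dnmt1, the maintenance methyltransferase, had 8254 ± 662 and 12317 ± 857 (log2 fold change -0.58, adjusted p = 0.000165 by limma), and its recruiting partner Uhrf1 had 4944 ± 318 and 7412 ± 239 (-0.59, adjusted p = 6.44e-05 by limma). Trim28, the corepressor that Zfp57 binds, had 12905 ± 1649 and 10781 ± 762 and did not pass (0.25, adjusted p = 0.0486 by limma). The dioxygenase genes Tet1 (-1.21) and Tet2 (-1.36), which oxidize methylated cytosine, and the histone methyltransferase genes Setdb1 (-0.51) and Ehmt2 (-0.33) were the other genes lower in T1 cells. The de novo methyltransferase gene Dnmt3b (0.98) was the 1 that was higher. Zfp57, Dnmt3b, Setdb1, Ehmt2 and the Tet genes were picked after their values were known.

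A further list of 33 genes, imprinted in some tissue or lying within imprinted domains, gave 16 compared genes, of which 9 were called, 7 higher and 2 lower in T1 cells (49.5% of all genes compared were called, 25.1% higher and 24.4% lower), and the median of the 16 log2 fold changes was 0.30. Smoc1, which encodes a matrix protein that modulates BMP signalling, was the only gene past both filters, with 26.3 ± 7.72 normalized counts in T1 cells and a single read over the T2 libraries, so that T1 was at least 8.97-fold higher. Jade1, Atp10a, Sfmbt2, Mcts2, Ube3a and Cd81 were the others higher in T1 cells, with log2 fold changes from 0.35 to 1.03, and Osbpl5 (-0.73) and Inpp5f (-0.47) were lower. Apart from Smoc1, these names were chosen with their values in view. Of the 33 genes in this further list, 8 were at 0 in all libraries. The set described first had 16 of 33 at 0, and all gene names 34.9%.

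**Figure D5:**
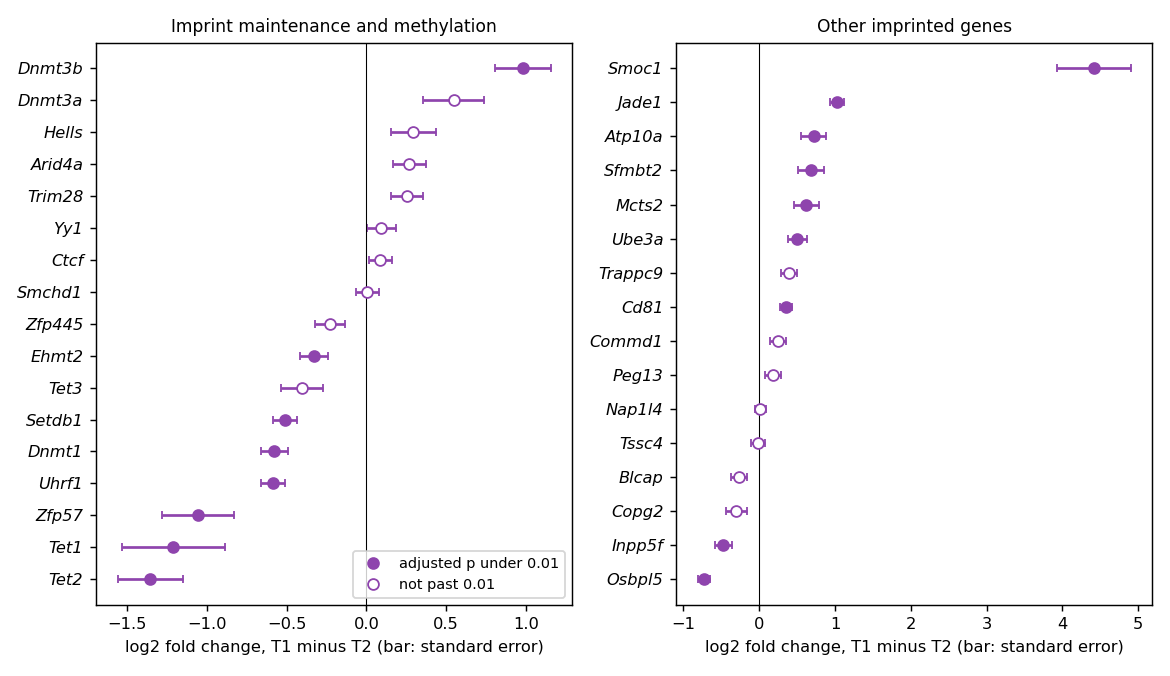
Log2 fold changes of T1 minus T2 with their standard errors (horizontal axes) for the compared genes of the imprint maintenance and methylation list and of the list of other imprinted genes, sorted by value. Filled circles passed an adjusted p of 0.01. Of the maintenance genes, 7 of the 8 called and 9 of the 17 compared lie left of 0. Of the other imprinted genes, 7 of the 9 called and 11 of the 16 compared lie right of it. Of all genes compared, 25.1% were called higher and 24.4% lower in T1 cells.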

How the data were processed

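RNA of 3 T1 and 3 T2 samples was sequenced as poly(A) libraries (TruSeq RNA V2, paired ends). Per the study's methods, the authors trimmed reads with Trimmomatic, aligned them to mm10 with TopHat2 and counted them per gene with HTSeq. The deposited signal is this count normalized by the authors with the median of ratios of DESeq2. Annotation, versions and strand setting are not given in the sources used here. Whole reads were recovered for 100% of values (tolerance 0.01 reads), giving 18133227 to 20839686 reads on genes per library. Sample groups came from the labels.

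Genes averaging 10 or more normalized counts were compared with limma 3.58.1 (R 4.3.3, mean-variance trend) on log2(normalized count + 1), a scale that understates changes of low genes. P-values were adjusted by the Benjamini-Hochberg method, and calls used adjusted p under 0.01, with or without an absolute log2 fold change above 2, as in the study. The edgeR 4.0.16 and DESeq2 1.42.0 tests on recovered reads, pseudocounts, filters, normalizations, a replicate block and leaving out each library were alternatives. P-values measure the spread between these samples, and exact permutation of 3 against 3 could not go below 0.1. Floors of 3 reads cover counting error only. The script was tested on simulated data. Positions and overlaps came from GENCODE M21, promoter windows from RefSeq.

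The imprinted genes and all lists were chosen with earlier results of these data known. Every imprinted gene is accounted for: those above the minimum by their values in each library, the others by reads. From the other lists, genes past both filters, up to 3 with the highest level and neighbours of called genes could be named, and any further gene is said to be chosen afterwards.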

Additional observations from a re-analysis of the deposited data

How the results depend on the processing

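None of the 5 calls among the imprinted genes was lost or reversed under an alternative in which the gene could be compared. Without the filter on low values, 17 imprinted genes entered, the median log2 fold change became 0.22, 6 were called and 3 passed both filters, Mkrn3 being added (2.28, adjusted p = 0.00233 by limma). Mkrn3 had 2, 9 and 3 reads in T1 and 0 in each T2 library, so the size of its difference depended on the pseudocount of 1. With a mean of at least 50, Asb4 was no longer compared, and 1 gene passed both filters. Leaving out 1 library gave 5 to 6 calls, 2 to 3 past both filters and a median of -0.59 to -0.36 for the imprinted genes, and 4654 to 5804 calls and 925 to 975 past both filters over all genes. Same-numbered T1 and T2 libraries had correlations of 0.057, 0.172 and 0.104 of their deviations, and differently numbered ones had -0.152 to 0.072. These values do not settle whether the numbers pair the libraries, and the main fit did not pair them. A fit with the replicate number as a block called 5780 genes, 967 past both filters, and 7 imprinted genes, 2 past both filters, adding Igf2r (adjusted p = 0.00931 by limma) and Kcnq1ot1 (adjusted p = 0.00169 by limma), with a median of -0.53. Counts of the 7 genes with few reads are too low to settle a difference, and why they are low was not tested.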

Other observations

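Although Igf2 itself was near 0, some genes that bind it or its RNA, or relay its signal, had reads in both populations. Of 16 genes listed for these roles, 10 were compared and 8 were called, 2 higher and 6 lower in T1 cells, with 4 past both filters and a median log2 fold change of -0.62. Of all genes compared, 49.5% were called, 25.1% higher and 24.4% lower, and 8.37% passed both filters. Igfbp4, a binding protein that keeps insulin-like growth factors from their receptor, was the highest of them, with 7961 ± 998 normalized counts in T1 and 58008 ± 1125 in T2 cells (SD, n = 3, log2 fold change -2.87, adjusted p = 4.99e-09 by limma). Igfbp6, which prefers Igf2 as its ligand, had 8.31 ± 2.99 and 154 ± 32.7 (-4.08, adjusted p = 1.41e-06 by limma).

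In the other direction, Igf2bp1, an RNA binding protein of fetal tissues, had 964 ± 106 normalized counts in T1 and 64.7 ± 28.5 in T2 cells (log2 fold change 3.97, adjusted p = 1.20e-06 by limma), and Irs1, a docking protein of the insulin and Igf1 receptors, had 418 ± 50.5 and 58.7 ± 5.61 (2.81, adjusted p = 2.32e-07 by limma). The paralog of Igf2bp1, Igf2bp2, had 2756 ± 155 and 4606 ± 189 (-0.74, adjusted p = 1.32e-05 by limma), so this pair moved in opposite directions. Hmga2, a chromatin protein gene upstream of Igf2bp2, had 3465 ± 233 and 10427 ± 1017 (-1.59, adjusted p = 2.14e-07 by limma).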
